A study of Caenorhabditis elegans with 2 samples.

Results

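Lysozymes, saposin-like proteins, small antimicrobial peptides and infection response proteins are the secreted end products of innate immunity in the nematode Caenorhabditis elegans. The 10 genes described here are 4 lysozyme genes (lys-1, lys-2, lys-7 and lys-8), the saposin-like gene spp-1, the antibacterial factor gene abf-2, the caenacin gene cnc-2 and 3 infection response genes (irg-1, irg-4 and irg-5). They were chosen by name, and all 10 were found among the 19973 protein-coding genes of the annotation. The data are chromatin immunoprecipitation sequencing (ChIP-seq) of JUN-1 tagged with eGFP, in whole L3 larvae of mixed sex, with 2 biological replicates of 1 group. The strain, OP234, carries the transgene wgIs234 and the unc-119(ed3) mutation, and the labels give jun-1 as the antibody target. No other genotype, stage or treatment was analysed here, which leaves no contrast to test, and the results are descriptions. Whole animals were used, so the lists do not say in which tissue a region was occupied, and the tagged protein comes from a transgene.

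Worms feed on bacteria, and lysozymes, which cut the peptidoglycan of bacterial cell walls, and saposin-like proteins, which open membranes, are made largely in the intestine. Abf and cnc genes encode short antimicrobial peptides, the caenacins mainly in the epidermis. JUN-1 is a bZIP factor of the AP-1 class, known for pairing with FOS proteins on the AP-1 site. The intestinal GATA factor ELT-2, a master regulator of that tissue, binds TGATAA.

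The authors deposited 4 peak lists on build ce11. An IDR list (irreproducible discovery rate, a filter on how alike the replicates rank regions) held 2738 peaks, a pooled list 20820 regions, and the lists of replicate 1 and replicate 2 held 27417 and 28475 regions. Each region has a summit and the authors' signal value, a score of unstated scale that is used here to describe and rank regions within a list, and across the replicate lists only relative to all IDR peaks. Rank 1 is the strongest. The lowest signal value of an IDR peak was 31.4 and the median 47.7, against a median of 12.9 in the pooled list. The sources used here do not give the read depth, so the counting error of a signal value is unknown and its spread is seen only in the 2 replicates.

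JUN-1 summits lay just upstream of 5 of the 10 genes: lys-2, lys-7, lys-8, spp-1 and irg-4. In each case an IDR summit fell in the promoter window, from 1000 bp upstream to 500 bp downstream of a coding 5′ end. Over all protein-coding genes 1898, or 9.50%, had such a summit. The pooled list added lys-1 and irg-1, giving 7 of 10 genes, where 39.2% of all protein-coding genes had a pooled summit in the window. For abf-2, cnc-2 and irg-5 no pooled summit was listed there. Within 3 kb of the gene body 6 of 10 genes had an IDR region (22.6% of all protein-coding genes) and 10 of 10 had a pooled region (73.3% of all). In all, 6 IDR peaks and 15 pooled regions lay within 3 kb of these genes, some of them near both lys-1 and lys-2.

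The sequences under the summits of the 7 genes are given first, because all the promoter results rest on these places. They are 101 bases centred on the pooled summit, on the strand of the gene and written 5′ to 3′, from the WBcel235 genome (RefSeq), which is build ce11. Capitals mark TGATAA or its reverse complement TTATCA. The spp-1 stretch stops at the gene's 5′ end and is 71 bases long.
lys-1, chrV:10277721-10277821, plus strand: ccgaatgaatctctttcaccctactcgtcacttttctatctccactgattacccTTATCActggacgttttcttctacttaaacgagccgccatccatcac
lys-2, chrV:10281495-10281595, minus strand: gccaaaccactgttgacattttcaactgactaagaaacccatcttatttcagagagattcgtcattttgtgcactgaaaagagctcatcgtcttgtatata
lys-7, chrV:3482749-3482849, minus strand: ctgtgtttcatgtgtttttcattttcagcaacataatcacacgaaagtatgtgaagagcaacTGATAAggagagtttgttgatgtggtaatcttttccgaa
lys-8, chrII:5585921-5586021, plus strand: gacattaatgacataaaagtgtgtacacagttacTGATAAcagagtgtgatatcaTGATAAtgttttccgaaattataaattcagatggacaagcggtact
spp-1, chrIII:10355669-10355739, minus strand: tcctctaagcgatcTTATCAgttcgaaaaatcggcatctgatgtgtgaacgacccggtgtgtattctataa
irg-4, chrIV:12435556-12435656, plus strand: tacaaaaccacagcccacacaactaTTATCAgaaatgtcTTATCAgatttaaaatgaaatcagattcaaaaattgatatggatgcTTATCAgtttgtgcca
irg-1, chrV:3523295-3523395, plus strand: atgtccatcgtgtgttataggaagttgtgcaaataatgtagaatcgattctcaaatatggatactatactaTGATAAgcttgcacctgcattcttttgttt

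Among the lysozyme genes, lys-8, which is known as a target of the insulin pathway factor DAF-16, had the strongest promoter peak. It lay at chrII:5585776-5586165, in intergenic sequence, with its summit 207 bp upstream of the 5′ end. Its signal value was 48.5 in the pooled list (rank 1329), 18.7 in replicate 1 (rank 1665) and 29.2 in replicate 2 (rank 1329). It was among the 2738 strongest regions of both replicates, and no other pooled region lay within 3 kb of the gene. The summit lay near the 3′ end of C17G10.12, a noncoding RNA gene on the other strand that spans 5585978 to 5586124. The region also overlaps this RNA gene. No other protein-coding gene had this summit in its promoter window.

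The lys-7 gene, induced by bacterial infection and also a DAF-16 target, had a single pooled region, at chrV:3482604-3482993, which was an IDR peak. The summit was intergenic and lay 199 bp upstream of the 5′ end. Signal values were 37.2 pooled (rank 2101), 13.3 in replicate 1 (rank 3009) and 23.9 in replicate 2 (rank 1935). Replicate 2 placed the peak within its 2738 strongest regions and replicate 1 did not. The region reached into the end of srbc-33, a chemoreceptor gene on the same strand 359 bp from lys-7, whose own 5′ end was farther away.

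The neighbours lys-1 and lys-2 point towards each other on chromosome V, 1250 bp apart, and shared 5 of the 6 pooled regions listed near them. The strongest of these in the pooled list was not in a promoter. This region, at chrV:10280041-10280430, had an intergenic summit between the 3′ ends of the genes and reached into the 3′ end of lys-2. The summit was 2332 bp downstream of the 5′ end of lys-1 and 1238 bp downstream of that of lys-2. The region's signal value was 41.9 pooled (rank 1723), 18.9 in replicate 1 (rank 1637) and 22.3 in replicate 2 (rank 2160). Both replicates listed it among their 2738 strongest regions, though in replicate 2 the lys-2 promoter region was stronger (28.1, rank 1417).
Between the 3′ ends of lys-1 and lys-2, chrV:10280186-10280286, minus strand: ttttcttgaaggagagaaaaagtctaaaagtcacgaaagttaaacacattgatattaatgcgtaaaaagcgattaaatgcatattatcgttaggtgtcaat

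The IDR peak in the lys-2 promoter lay at chrV:10281350-10281739, with its summit 71 bp upstream of the 5′ end. It had a signal value of 37.2 in the pooled list (rank 2097). It had 10.2 in replicate 1 (rank 4736) and 28.1 in replicate 2 (rank 1417), and was among the 2738 strongest regions of replicate 2 only. An overlapping pooled region, with its summit 274 bp upstream, had a value of 14.0 (rank 9058). Replicate 1 listed a region there with a value of 10.1, close to that of its neighbour, and replicate 2 listed no separate one.

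The lys-1 promoter held pooled regions but no IDR peak. The stronger, at chrV:10277576-10277965 with its summit 133 bp upstream of the 5′ end, had a signal value of 25.6 (rank 3705), below the lowest IDR value of 31.4. It was 7.15 in replicate 1 (rank 8745) and 20.4 in replicate 2 (rank 2503), so replicate 2 alone placed it among its strongest 2738. The weaker, 915 bp upstream, had a value of 13.8 (rank 9290), overlapped the long noncoding RNA gene linc-38 and was listed in replicate 1 (8.43) but not in replicate 2. A further pooled region of value 12.7 had its summit in an intron of lys-1. Within the gene bodies the replicates listed further regions that had no pooled counterpart of their own, such as one of value 8.06 in a coding exon of lys-2 in replicate 1.

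**Figure D1:**
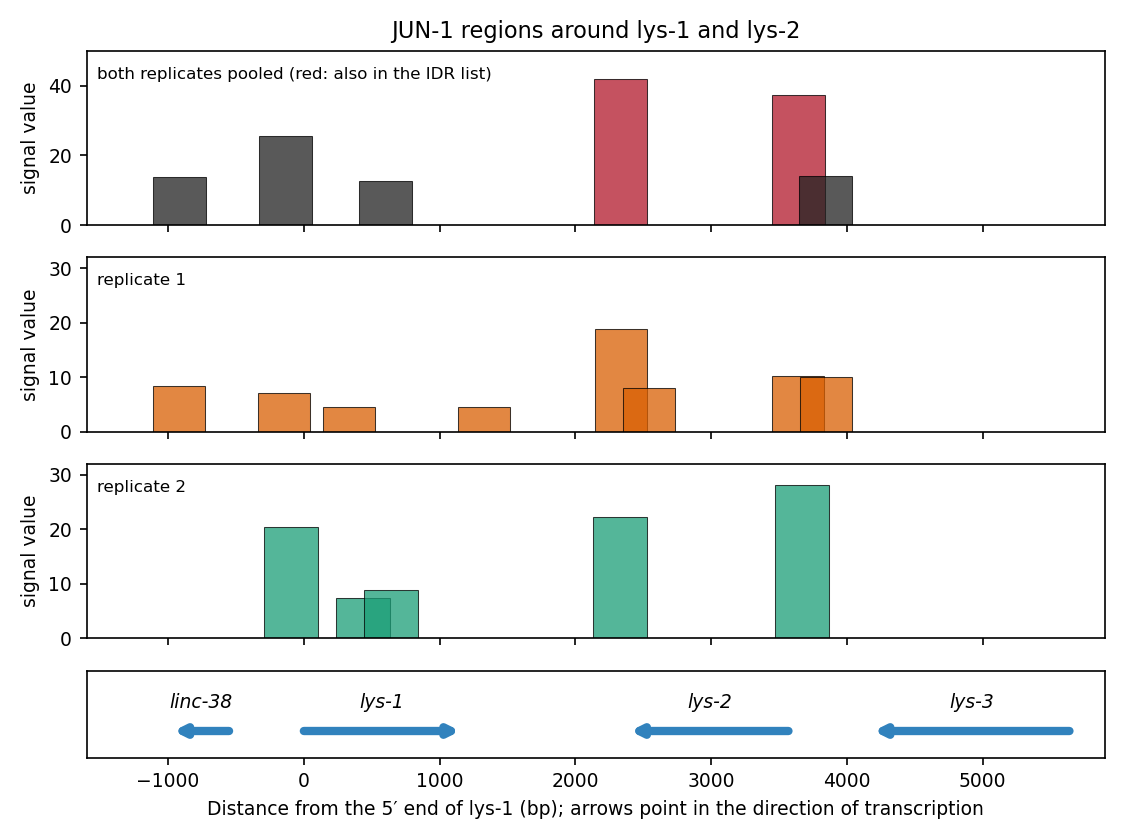
JUN-1 regions around lys-1 and lys-2 (horizontal axis, distance in bp from the 5′ end of lys-1; vertical axes, the authors' signal value in the pooled list and in each replicate, each on its own scale). Bars span the regions, red bars are also IDR peaks, and arrows show genes. The region with its summit between the 3′ ends of lys-1 and lys-2 is prominent in all 3 lists (41.9, 18.9 and 22.3). The promoter bars nearest to the 5′ ends of lys-1 and lys-2 have 7.15 and 10.2 in replicate 1 and 20.4 and 28.1 in replicate 2.

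Of the small antimicrobial proteins, spp-1 had a peak and the others did not. The spp-1 gene encodes a pore-forming saposin-like protein of the intestine and is known as a DAF-16 target. Its IDR peak at chrIII:10355494-10355883 had its summit 21 bp upstream of the 5′ end, and the summit lay at that same base in the pooled list and in both replicates. The signal value was 47.7 pooled (rank 1372), 22.96 in replicate 1 (rank 1112) and 22.8 in replicate 2 (rank 2086). Both replicates placed it among their 2738 strongest regions. A second pooled region, of value 17.9 (5.01 in replicate 1 and 14.5 in replicate 2), lay 2309 bp upstream of spp-1. It was 329 bp upstream of umps-1, in the promoter window of that gene, which encodes a pyrimidine synthesis enzyme.

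The abf-2 gene, which encodes a defensin-like peptide, had only weak regions. The pooled region within 3 kb, on chromosome I with its summit 1061 bp downstream of the 5′ end, had a signal value of 9.35 (rank 18308) and lay in an intron of C50F2.2. That larger gene spans abf-2 on the other strand. Replicate 2 listed it at 7.33 (rank 13031) and replicate 1 had no region there. The caenacin gene cnc-2, an epidermal gene known to be controlled by TGF-β signalling, had a pooled region of value 16.1 (rank 7290), 3100 bp downstream of its nearest 5′ end. It was 6.34 in replicate 1 and 7.74 in replicate 2, and fell 121 bp upstream of cnc-4, so it lay in the promoter windows of cnc-3 and cnc-4 and not of cnc-2. Replicate 1 alone listed a region of value 3.89 (rank 24444) in the 3′ UTR of cnc-2, 409 bp downstream of the 5′ end.

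The 3 infection response genes had different pictures. The irg-4 gene, which encodes a CUB-like-domain protein and depends on p38 signalling, had an IDR peak at chrIV:12435411-12435800 with its summit 227 bp upstream. Its signal value was 37.1 pooled (rank 2117), 15.6 in replicate 1 (rank 2315) and 20.5 in replicate 2 (rank 2484). Both replicates placed it among their strongest 2738. Its neighbours on either side are the C-type lectin genes clec-184 and clec-185, neither of which had a pooled summit in its promoter window. The irg-4 peak was thus listed for irg-4 alone among protein-coding genes.

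The irg-1 gene, which is induced by Pseudomonas infection through the bZIP factor ZIP-2, had a weak pooled region at chrV:3523150-3523539, with its summit 242 bp upstream in an annotated pseudogene. The signal value was 12.6 pooled (rank 10845), 4.04 in replicate 1 (rank 23150) and 8.08 in replicate 2 (rank 10931). The nearest summit of replicate 1 lay 139 bp from the pooled one, and that of replicate 2 lay 7 bp from it. The irg-5 gene, which like irg-4 encodes a CUB-like-domain protein, had no region in its promoter window in any of the 4 lists. The pooled region nearest to it, 2851 bp upstream, had a value of 8.89 (rank 19970), close to the list's lowest of 8.67. Replicate 2 listed it at 7.33, and replicate 1 listed no region within 3 kb of irg-5.

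**Figure D2:**
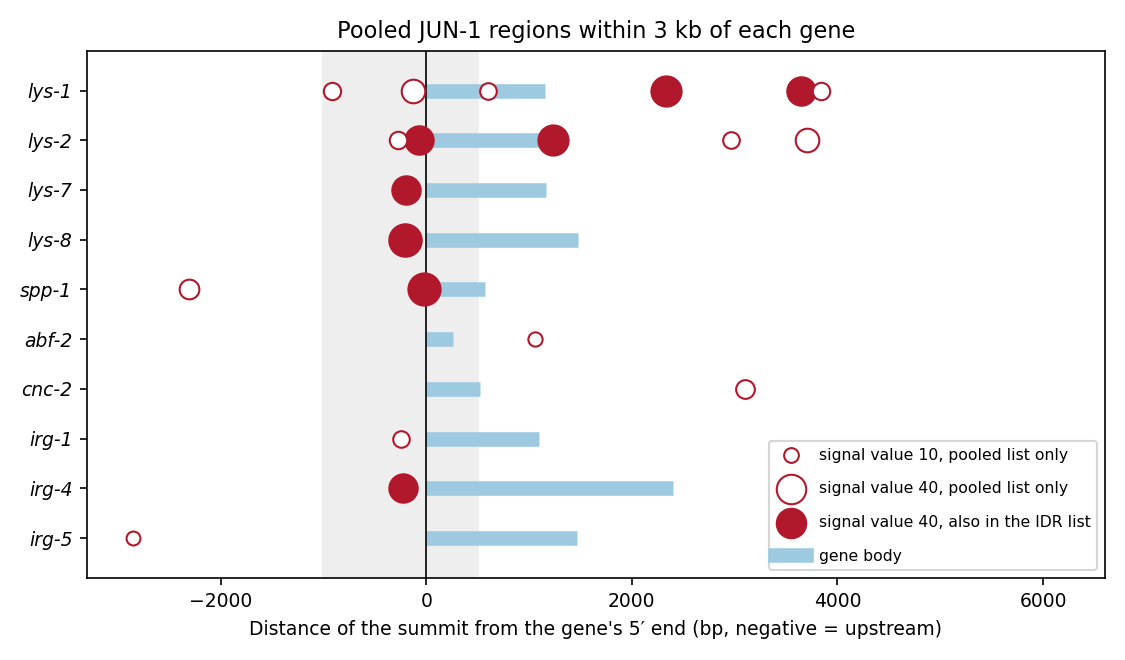
Pooled regions within 3 kb of each gene (horizontal axis, distance of the summit from the 5′ end in bp, negative upstream; rows are the 10 genes; circle area is proportional to the pooled signal value; filled circles are also IDR peaks; blue bars are gene bodies and grey the promoter window). In the grey window filled circles sit between 227 and 21 bp upstream at lys-2, lys-7, lys-8, spp-1 and irg-4, and outside it they mark the peak between lys-1 and lys-2 (2332 and 1238 bp downstream of their 5′ ends) and, in the lys-1 row, the lys-2 promoter peak (3641 bp), while abf-2, cnc-2 and irg-5 have no circle in the grey window.

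The promoter peaks of the 5 genes lay upstream, as most such peaks do, and were modest in strength. All 5 summits were upstream of the 5′ end, between 227 and 21 bp away, with a median of 199 bp upstream. For all 1898 protein-coding genes with an IDR summit in the window, the strongest summit was upstream in 91.3%. The median there was 233.5 bp upstream, with quartiles of 445.75 and 107 bp upstream. The median signal value of the 5 genes' peaks was 37.2, against 48.9 for all such genes, whose quartiles were 38.2 and 67.3. Of the 5 peaks, that of lys-8 was among the strongest 1369 of the 2738 IDR peaks, and that of spp-1, at rank 1372, fell just outside them. All 6 IDR peaks near the genes had the highest −log10 q of the list, 3.73, which most IDR peaks share. The lys-1 promoter region, not an IDR peak, had 2.15.

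The order of strength among the 5 genes was not fixed by the replicates. In the pooled list lys-8 (48.5) and spp-1 (47.7) came first, and lys-2 (37.2), lys-7 (37.2) and irg-4 (37.1) followed with nearly equal values. Replicate 1 put spp-1 above lys-8 (22.96 and 18.7), and replicate 2 put lys-8 above spp-1 (29.2 and 22.8). Replicate 1 ranked the other 3 genes as irg-4, lys-7 and lys-2 (15.6, 13.3 and 10.2). Replicate 2 gave the opposite order, lys-2, lys-7 and irg-4 (28.1, 23.9 and 20.5). Neighbours in the pooled order of these 5 genes are therefore not separated beyond the spread between replicates.

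**Figure D3:**
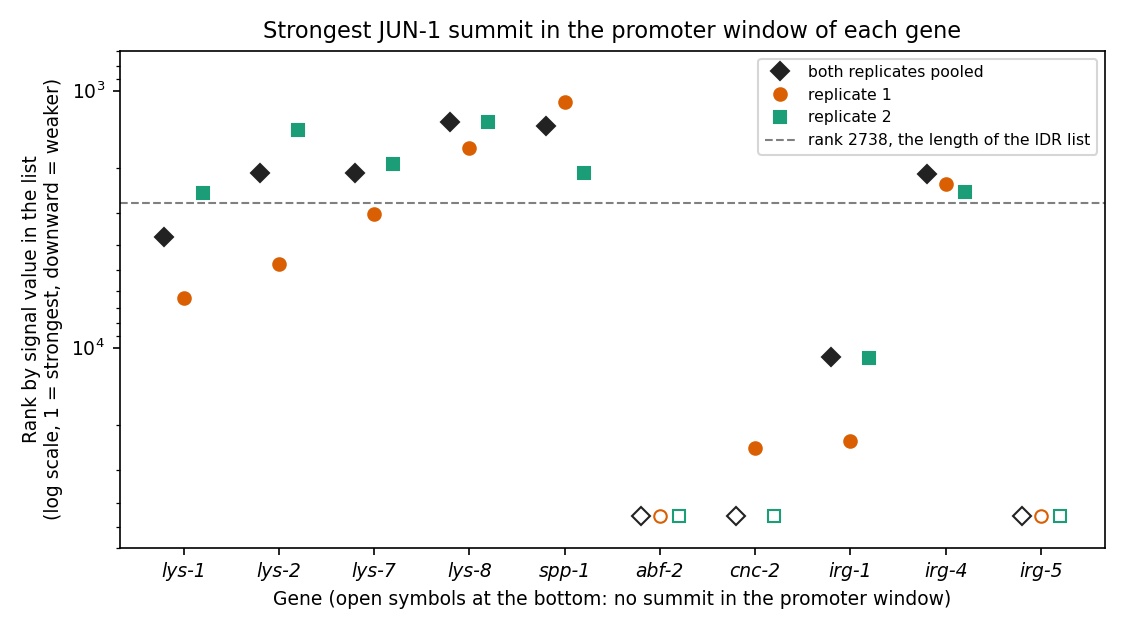
Rank of the strongest summit in the promoter window of each gene (horizontal axis, genes; vertical axis, rank by signal value within the list on a log scale, strongest at the top; diamonds are the pooled list, circles replicate 1 and squares replicate 2; open symbols at the bottom mark genes with no summit). The dashed line is rank 2738; lys-8, spp-1 and irg-4 lie above it in all 3 lists, lys-2 and lys-7 fall below it in replicate 1, and for lys-1 the replicate 1 circle is the region 919 bp upstream.

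The scores of the replicate lists may not share a scale (their medians were 5.59 in replicate 1 and 6.96 in replicate 2), so a peak's pair of values was read only against the pairs of all IDR peaks. For the 6 IDR peaks near the genes, the ratio of the signal value in replicate 2 to that in replicate 1 ran from 0.992 at spp-1 to 2.76 at the lys-2 promoter, with a median of 1.44. Over the 2702 IDR peaks matched in both replicates the median was 1.40 and the quartiles were 1.06 and 1.92. The lys-2 ratio was higher than that of 91.4% of these peaks, and the spp-1 ratio higher than that of 20.4%. The ratio was 1.18 for the peak between lys-1 and lys-2, 1.31 for irg-4, 1.56 for lys-8 and 1.80 for lys-7, all inside the quartiles.

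**Figure D4:**
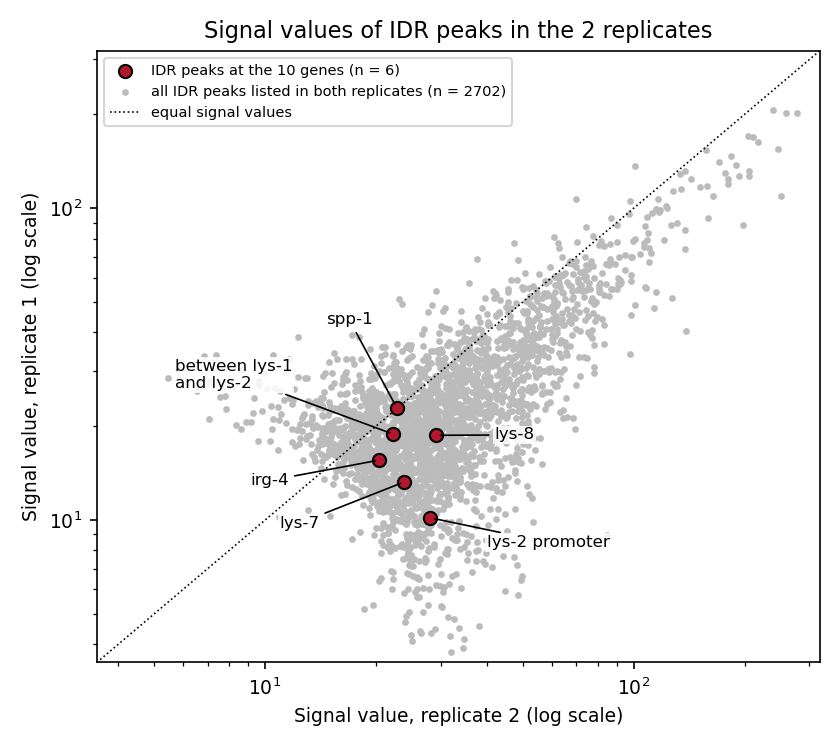
Signal values of IDR peaks in replicate 2 (horizontal axis, log scale) and replicate 1 (vertical axis, log scale), with the 6 peaks near the 10 genes in red and all 2702 peaks matched in both replicates in grey. The red points lie within the grey ones, with the lys-2 promoter peak (28.1 and 10.2) towards their lower side; the dotted line marks equal scores, which need not mean equal standing in the 2 lists.

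Taken alone, the replicates differed on how many of the 10 genes had a strong promoter region. Among the 2738 strongest regions of replicate 1, a summit lay in the promoter window of 3 genes (lys-8, spp-1 and irg-4), where 8.85% of all protein-coding genes had one. Among the 2738 strongest of replicate 2, it was 6 genes (these 3 with lys-1, lys-2 and lys-7), where 9.43% of all had one. Any listed summit in the window was found for 8 genes in replicate 1 (45.5% of all protein-coding genes) and for 7 in replicate 2 (45.8% of all). The lists of each replicate, at any strength, therefore added cnc-2 in replicate 1 and no gene in replicate 2 to the 7 of the pooled list.

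The GATA word was found near the summit in 4 of the 5 promoter peaks, all but that of lys-2. TGATAA or its reverse complement lay within 50 bp of the summit in 4 of the 6 IDR peaks near the genes, those of lys-7, lys-8, spp-1 and irg-4. It was in 24.0% of all 2738 IDR peaks. In the pooled list it was in 7 of 15 regions near the genes and in 15.5% of all 20820 regions. The number of copies also varied among these peaks, with 3 at irg-4, 2 at lys-8 and 1 each at lys-7 and spp-1. At least 2 copies were found in 6.57% of all IDR peaks and at least 3 in 30 of the 2738 (1.10%). The lys-2 window held none, but a pair of copies starts 155 and 148 bp upstream of the lys-2 5′ end.

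The longer word ACTGATAA, searched after the shorter word had been seen in these windows, was in the same 4 IDR peaks, at lys-7, lys-8, spp-1 and irg-4. It was in 6.46% of all IDR peaks and in 6.07% of the 1581 IDR peaks in any coding promoter. As the search was added with these windows in view, its matches in them are not a test of the longer word. TGATAA was in 4 of the 5 IDR peaks in the promoters of the 10 genes, against 21.3% of those 1581. GC content also differed: the 5 windows had a median of 35.6% (31.7 to 41.6%), against 43.6% for all IDR peaks. The windows of the 15 pooled regions had a median of 34.7%, against 36.6% for all pooled regions. The part of base composition in the GATA counts was not tested.

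The GATA word was not limited to genes with a JUN-1 summit. In the 250 bp upstream of the 5′ end, a stretch also searched after the windows had been seen, all 10 genes held at least 1 copy of TGATAA, against 26.8% of all protein-coding genes. The lys-8 gene had 4 copies, lys-1, lys-2, spp-1 and irg-4 had 2 each, and lys-7, abf-2, cnc-2, irg-1 and irg-5 had 1 each. Thus abf-2, cnc-2 and irg-5, which had no pooled summit in the promoter window, also held it. ACTGATAA was in this stretch of 4 genes, lys-7, lys-8, spp-1 and irg-4, and of 3.93% of all protein-coding genes. Its copies at these 4 genes are those already counted in the summit windows, so this count is not a second result. The stretches around the copies at lys-2, cnc-2 and irg-5 are shown for comparison with the summit windows above, on the strand of the gene with TGATAA or its reverse complement in capitals.
lys-2, chrV:10281604-10281649, minus strand: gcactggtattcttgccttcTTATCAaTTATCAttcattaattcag
cnc-2, chrV:1450307-1450352, minus strand: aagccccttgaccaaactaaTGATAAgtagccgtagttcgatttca
irg-5, chrV:13738583-13738628, minus strand: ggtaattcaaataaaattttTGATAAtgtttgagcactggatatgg

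The AP-1 site was in none of these places. TGACTCA and TGAGTCA, the forms bound by FOS-JUN pairs, were in 0 of the 6 IDR peaks and 0 of the 15 pooled regions near the genes, within 50 bp of the summit. They were in 3.40% of all IDR peaks and 1.75% of all pooled regions, so at these shares few or no matches would be found among so few regions. Nor were they in the 250 bp upstream of any of the 10 genes (3.12% of all protein-coding genes). The CRE TGACGTCA and the E-box CACGTG were also in 0 of the 15 pooled regions, against 0.720% and 2.78% of all pooled regions. The FOXO word GTAAACA, bound by DAF-16, was in 0 of the 15 pooled summit windows (1.90% of all pooled regions). Over whole regions it was in 1 of the 6 IDR peaks, that of lys-7 (7.74% of all IDR peaks), and in the upstream stretch of lys-7 alone (4.36% of all genes). The absence of a word says only that these letters are not in these windows.

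The same families hold many other effector genes, and most of them had no IDR summit in the promoter window. The wider list held 73 further genes: the other lys genes, the invertebrate-type lysozyme genes ilys, the other spp, abf, cnc and irg genes, the thaumatin-like thn genes and the antimicrobial peptide genes of the nlp-29 cluster. An IDR summit lay in the promoter window of 5 of the 10 genes, against 5 of the 73 (6.85%, exact 95% Clopper-Pearson interval 2.26 to 15.3%), and a pooled summit in that of 7 of the 10, against 37 of the 73 (50.7%, 38.7 to 62.6%). Over all protein-coding genes the shares were 9.50% and 39.2%. With the window widened to 2000 bp upstream, 11 of the 73 had an IDR summit, where 12.3% of all protein-coding genes did, and the count for the 10 genes was 5. The intervals cover counting error of genes only, and neighbours that share a region are not independent. The 10 were picked by name with earlier results of these data known, so this difference was not tested.

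Saposin-like genes, 30 of the 73, carried 4 of the 5. The strongest was spp-14 (69.0 pooled, 31.2 in replicate 1 and 37.98 in replicate 2), with its summit 185 bp upstream, followed by spp-8 (55.1 pooled, 18.2 and 38.6). On chromosome X, spp-5 (54.4 pooled, 33.5 and 20.6) and spp-3 (50.9 pooled, 8.63 and 39.8) changed places, with spp-5 above spp-3 in replicate 1 and below it in replicate 2. All 4 exceeded the spp-1 value of 47.7 in the pooled list. Only spp-14 also exceeded the spp-1 values of both replicates (22.96 in replicate 1 and 22.8 in replicate 2). Of 30 further saposin-like genes 4 had an IDR summit and 15 a pooled summit in the promoter window. The remaining gene was the lysozyme gene lys-6 (32.3 pooled, 11.9 and 18.3), 711 bp upstream of the 5′ end and just above the lowest IDR value.

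Among genes without an IDR summit, the strongest pooled summits were those of lys-4 (31.0), of nlp-31 and nlp-34, which shared a region (28.8), and of spp-2, which shared a region with spp-6 (25.98). All lay below the lowest IDR value of 31.4. The 10 further caenacin genes, the 6 invertebrate-type lysozyme genes, the 6 genes of the nlp-29 cluster, the 5 further infection response genes, the 5 further abf genes and the 5 thaumatin-like genes had 0 IDR summits in their promoter windows. At the 9.50% of all protein-coding genes, few or no IDR summits would be found in classes of 5 to 10 genes. Pooled summits lay in that window for 4 caenacin, 3 invertebrate-type lysozyme, 4 nlp-29 cluster, 4 infection response, 2 abf and 2 thaumatin-like genes. Over all protein-coding genes the share with a pooled summit was 39.2%.

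**Figure D5:**
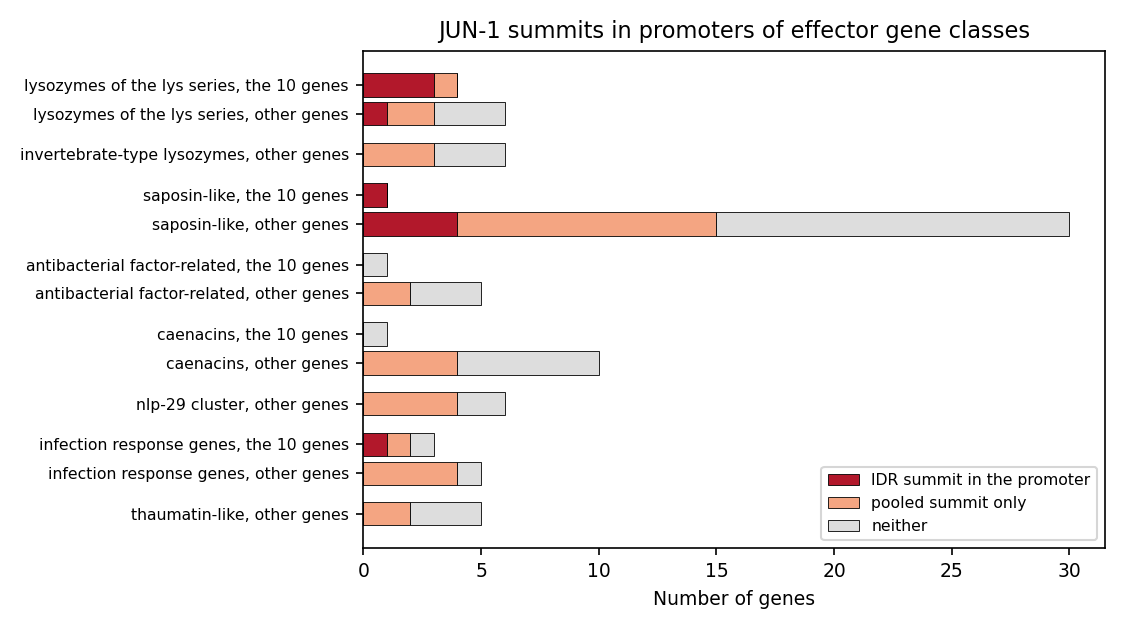
Number of genes in each effector class (rows) with an IDR summit in the promoter window (red), a pooled summit only (orange) or neither (grey), for the 10 genes described and for the 73 other genes of the wider list. Red is found in 3 of the 4 lysozyme genes, spp-1 and 1 of the 3 infection response genes among the 10, and in 4 saposin-like genes and 1 lysozyme gene among the others.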

How the data were processed

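Peak lists on build ce11 were used as deposited. The text files that the authors deposited with each sample trace a replicate list to the alignments of that replicate plus a control, the pooled list to both replicates plus the control, and the IDR list to these 3 lists. Column 7 is the authors' signal value, a score, and column 9 the authors' −log10 of a q-value, whose ties left the score for ranking. The peak caller, the aligner, the handling of reads that match several genes and the depth are not stated in them or in the labels. The 4 lists on ce10 were not used.

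Genes came from Ensembl release 115 on WBcel235, the assembly that ce11 names. The genes, lists and motifs were chosen with earlier results of these data known. The named genes of the wider list were up to 6 with an IDR summit and 4 more with the strongest pooled summits. Replicate regions were matched to a pooled region by the nearest summit within 200 bp. Counts and shares were set beside those of all genes or regions, and no test was made. Alternatives varied windows, distances, the list and the replicates. Assignment and motif search were tested on simulated data. The software was matplotlib 3.10.9, scipy 1.17.1, pandas 2.3.3 and numpy 2.4.6 under Python 3.11.15.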

Additional observations from a re-analysis of the deposited data

How the results depend on the processing

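The 5 genes with an IDR summit in the promoter window (lys-2, lys-7, lys-8, spp-1 and irg-4) were the same under the following settings. With 500 bp upstream and 200 bp downstream, 7.26% of all protein-coding genes had such a summit, and with 2000 bp upstream 12.3%. The share was 8.74% with the gene record's 5′ end, 7.43% with the nearest 5′ end only and 10.2% with any overlap. Among the strongest 1369 IDR peaks 1 gene was left, lys-8, both for promoter summits (4.95% of all protein-coding genes) and for regions within 3 kb (12.6%). With each replicate left out in turn, the 2738 strongest regions of the remaining replicate replaced the IDR list. The promoter counts were those given above for each replicate alone. They were 3 without replicate 2 (8.85% of all protein-coding genes) and 6 without replicate 1 (9.43%). Within 3 kb the counts were 5 (21.7%) and 6 (22.4%). The pooled promoter count was 6 without replicate 2 (38.4%) and 7 without replicate 1 (38.3%). The pooled count within 3 kb was 8 (76.1%) and 10 (73.8%), in the same order. The pooled promoter count of 6 came from a shortened replicate 1 list, since the full list of replicate 1 gave 8 genes. In the wider list 11 in place of 5 genes had an IDR summit with the window of 2000 bp upstream (12.3% of all protein-coding genes). The GATA word was in 5 of the 15 pooled regions within 25 bp of the summit (8.14% of all pooled regions) and in 9 within 100 bp (26.3%), in place of 7 (15.5%). ACTGATAA, added after seeing the data, was in 5 within 50 bp (2.89%). Of 15 pooled regions, 11 were matched in both replicates within 200 bp and 9 within 100 bp. The 11 include the weaker lys-2 region, 274 bp upstream, whose nearest replicate 2 summit lay 172 bp away. That replicate 2 region was also the match of the lys-2 promoter peak, so it was counted for both. The other alternatives changed no count by over 1.5 times. The causes of these changes were not tested, and the cut to the strongest 1369 leaves fewer peaks by construction. No paired analysis was possible because the design has 1 group. Unknown depth limits every statement on a region that is not listed.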

Other observations

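Saposin-like genes spp-2 to spp-6 form a cluster on chromosome X, and the replicates marked its members unevenly. In replicate 1 the spp-5 region was the stronger (33.5, rank 488) and the spp-3 region weak (8.63, rank 6214). In replicate 2 the spp-3 region was the stronger (39.8, rank 672) and the spp-5 region lower (20.6, rank 2451). The spp-4 region lay between them in position and was listed at 4.87 in replicate 1 and 14.7 in replicate 2. How reads that match more than 1 of these similar genes were placed is not stated in the labels, and its part in these values was not tested.

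The lysozyme genes lys-4, lys-5 and lys-6 on chromosome IV had pooled summits of 31.0, 12.8 and 32.3 in their promoter windows. The lys-4 value was 12.9 in replicate 1 and 17.9 in replicate 2, and lay just below the lowest IDR value of 31.4.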
